A study of Macaca mulatta with 10 samples.

Results

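The nuclear genes that encode the subunits of the oxidative phosphorylation system were followed across skeletal muscle and adipose tissue of rhesus monkeys. Genes were taken by symbol: those beginning with NDUFA, NDUFB, NDUFC, NDUFS or NDUFV (complex I), SDHA to SDHD (complex II), those beginning with UQCR together with CYC1 (complex III), COX4 to COX8 (complex IV) and ATP5 (complex V, ATP synthase), with assembly factors left out. This gave 45 of the 28595 genes in the files, of which 19 belong to complex I, 4 to complex II, 5 to complex III, 7 to complex IV and 10 to complex V. NDUFA4 and NDUFA4L2 were counted with complex IV, because NDUFA4 protein is a component of cytochrome c oxidase despite its name. One of the 45, NDUFA5, had 0 reads in every library, so 44 genes entered the tests below. The name table held 72 symbols of these kinds, and the 27 with no row were not analysed here; they include COX7A2, both COX6A genes and COX4I2, and none of the mitochondrially encoded subunits was measured.

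Poly(A) RNA was sequenced from strand-specific libraries of muscle and adipose tissue (labelled fat) from 5 male monkeys, 1 library per tissue and animal. The hyperinsulinemic animal, rhesus_950807 (names as in the labels), carried a heterozygous K410X nonsense variant in PRKD2, a gene that encodes protein kinase D2. The animals rhesus_920401, rhesus_940129, rhesus_940313 and rhesus_950509 were the controls. The study had 1 hyperinsulinemic animal in this data set, so insulin state, the PRKD2 allele and the individual cannot be told apart, and the spread of that group was taken to be that of the controls.

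Oxidative phosphorylation is the last stage of respiration in the mitochondrion. Complexes I and II take electrons from NADH and succinate and pass them to ubiquinone, complex III hands them to cytochrome c, complex IV gives them to oxygen, and the proton gradient built along the way drives ATP synthase. Skeletal muscle fibers, above all slow oxidative fibers, are rich in mitochondria, whereas white adipocytes hold few, and some subunits exist in tissue-specific isoforms such as COX7A1, the heart and muscle form of subunit VIIa.

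Libraries held 30669915 to 43268985 mapped reads, of which 18091221 to 26850260 fell in genes. In muscle the 10 most abundant genes took 30.3 to 32.9% of gene reads, against 5.35 to 8.10% in adipose tissue. The muscle fiber genes ACTA1 and CKM were high in each muscle library, and ADIPOQ, the adipocyte hormone adiponectin, stood at 2.06 to 15.4 RPKM in muscle and 631 to 1491 RPKM in adipose tissue. RPKM is the read count per kilobase of transcript and scaled to the library's mapped reads. The row named FABP4 went against its name as an adipocyte marker, with 27.7 to 68.7 RPKM in muscle and 0.254 to 3.44 RPKM in adipose tissue. The adipose libraries of controls rhesus_920401 and rhesus_940313 held 101 and 80.9 RPKM of ACTA1, against 0.444 to 1.72 RPKM in the other 3 adipose libraries, and results were also computed without those libraries.

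The first comparison asked how muscle differs from adipose tissue in the 4 control monkeys. With edgeR's quasi-likelihood test and TMM scaling (which assumes that most genes do not differ), 35 of the 44 subunit genes were higher in muscle at an adjusted p under 0.05 and a log2 difference of at least 1, and 0 were lower. Of all 11173 genes tested, 22.0% were higher and 29.6% lower in muscle by the same rule. The median log2 difference of the subunit genes was 1.63, against −0.23 over all genes tested. When the libraries were scaled to their mapped totals instead, as in RPKM, 10 subunit genes were higher and 2, NDUFA4L2 and UQCRH, were lower, against 7.15% and 63.0% of all genes, and the medians were 0.26 for the subunit genes and −1.61 for all genes. Values below 0 numbered 14 of 44 with mapped totals, against 2 with TMM; the 12 that turned were ATP5F1C, ATP5MC3, ATP5PD, COX4I1, COX6C, NDUFA1, NDUFA6, NDUFB1, NDUFB8, NDUFS4, SDHD and UQCRB. The scaling thus moved all genes together by over 1 log2 unit, while the distance between the subunit genes and the median gene was 1.86 with TMM and 1.87 with mapped totals. In bulk tissue, fewer cells of a type and less RNA per cell cannot be told apart.

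Called genes were spread over all complexes. With TMM, 15 of 18 genes of complex I passed, 4 of 4 of complex II, 3 of 5 of complex III, 5 of 7 of complex IV and 8 of 10 of complex V. The median differences were 1.72 for complex I, 1.98 for complex II, 1.40 for complex III, 1.45 for complex IV and 1.62 for complex V. With mapped totals, 4 of 18 genes of complex I were higher, 1 of 4 of complex II, 2 of 5 of complex III with 1 lower, 2 of 7 of complex IV with 1 lower, and 1 of 10 of complex V. The medians were then 0.34, 0.61, 0.04, 0.09 and 0.25 in the same order. Within each complex the range was wider than the distance between these medians, and in complex IV it ran from −0.81 to 4.53 with TMM.

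**Figure D1:**
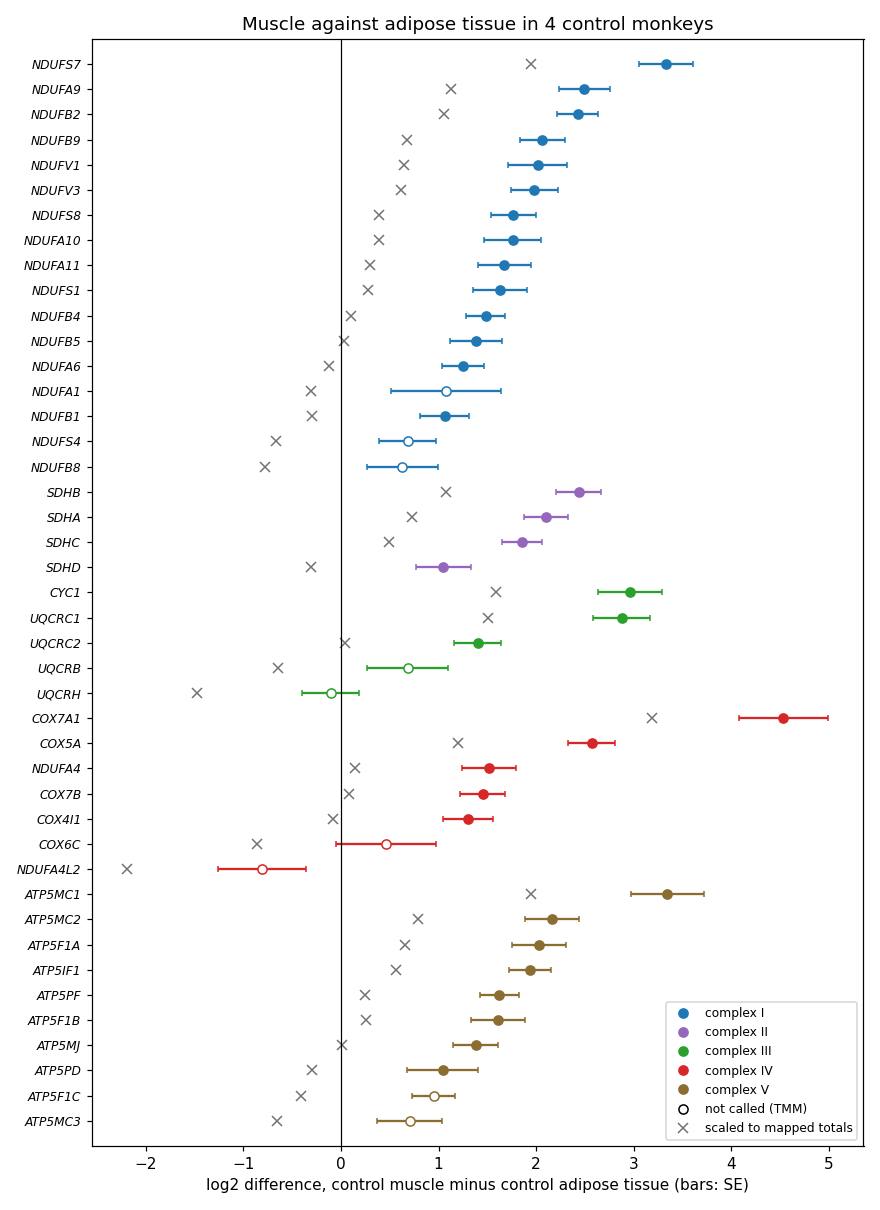
The log2 difference of 43 subunit genes, control muscle minus control adipose tissue, is shown by complex; circles give the TMM-scaled value with its SE (filled where called), and crosses give the value scaled to mapped totals. All genes move left together with mapped totals, and COX7A1 is the farthest right under both scalings.

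COX7A1 showed the widest difference of all. Its level was 1981, 2853, 2571 and 2091 RPKM in control muscle (rhesus_920401, rhesus_940129, rhesus_940313 and rhesus_950509), against 200, 226, 481 and 134 RPKM in the adipose tissue of the same animals. The groups were far apart, and the log2 difference was 4.53 ± 0.46 (SE; adjusted p = 8.02e-06, edgeR) with TMM and 3.19 with mapped totals. In the files the gene lies on chromosome 19, positions 42648652 to 42650194, in a build that is not given in the sources used here. COX7A1 made up 32.0 to 40.0% of the summed RPKM of the 44 subunit genes in control muscle, against 4.79 to 13.1% in control adipose tissue. The adipose library of rhesus_940313 had the highest COX7A1 level of the 4 controls, and also the highest UCP1, the brown adipocyte uncoupling protein, at 5.29 RPKM against 0.127 to 1.11 RPKM in the other controls. Of the 5 brown adipocyte genes listed, 2 had a row, and their sum in that library was 5.61 RPKM, nearly all of it UCP1. In the adipose tissue of rhesus_940129 the sum was 1.16 RPKM with 0.391 RPKM of UCP1, so the second gene was higher there. Whether the COX7A1 and UCP1 levels are linked was not tested. In the adipose library of rhesus_940313 ACTA1 stood at 0.270% of its level in the animal's muscle. The same percentage of the muscle COX7A1 level would be 6.94 RPKM, if muscle RNA entered in fixed proportions. The part of muscle RNA in this COX7A1 level was not tested.

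The other complex IV genes differed less. COX5A, a nuclear subunit that sits on the matrix side, was 142 ± 10.2 RPKM in control muscle and 61.8 ± 14.7 RPKM in control adipose tissue (SD, n = 4 each), and its log2 difference was 2.57 ± 0.24 (SE) with TMM. COX4I1, the ubiquitous isoform of subunit IV, had 233, 215, 185 and 231 RPKM in control muscle, against 196, 335, 217 and 166 RPKM in control adipose tissue. These levels overlapped, and the gene was called higher in muscle with TMM (log2 difference 1.30) and not with mapped totals (−0.08). COX7B and NDUFA4, at 1.45 and 1.52 with TMM, behaved in the same way and lay at 0.09 and 0.14 with mapped totals. COX6C did not pass under either scaling.

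NDUFA4L2, a paralog of NDUFA4 known in human cells as a hypoxia-inducible gene, ran the other way. Its level was 2.46, 4.21, 1.92 and 4.99 RPKM in control muscle, against 11.9, 30.5, 8.80 and 10.8 RPKM in control adipose tissue. Each adipose library lay above each muscle library, but the TMM-scaled difference of −0.81 ± 0.45 (SE) did not pass (adjusted p = 0.134, edgeR), whereas with mapped totals it was −2.19 and passed. A share within a library does not depend on scaling. NDUFA4L2 took 23.3, 26.8, 16.5 and 34.5% of the RPKM of NDUFA4 and NDUFA4L2 together in control muscle, against 55.1, 78.4, 51.9 and 54.7% in control adipose tissue. The difference of the means was −34.8 percentage points (25.3 ± 7.47% in muscle, 60.0 ± 12.3% in adipose tissue, SD, n = 4 each; two-sided exact permutation p = 0.0286, the smallest that 4 against 4 allows, and 0.0571 after adjustment over the 4 shares tested). Muscle and adipose libraries thus did not overlap, while the adjusted value missed 0.05.

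**Figure D2:**
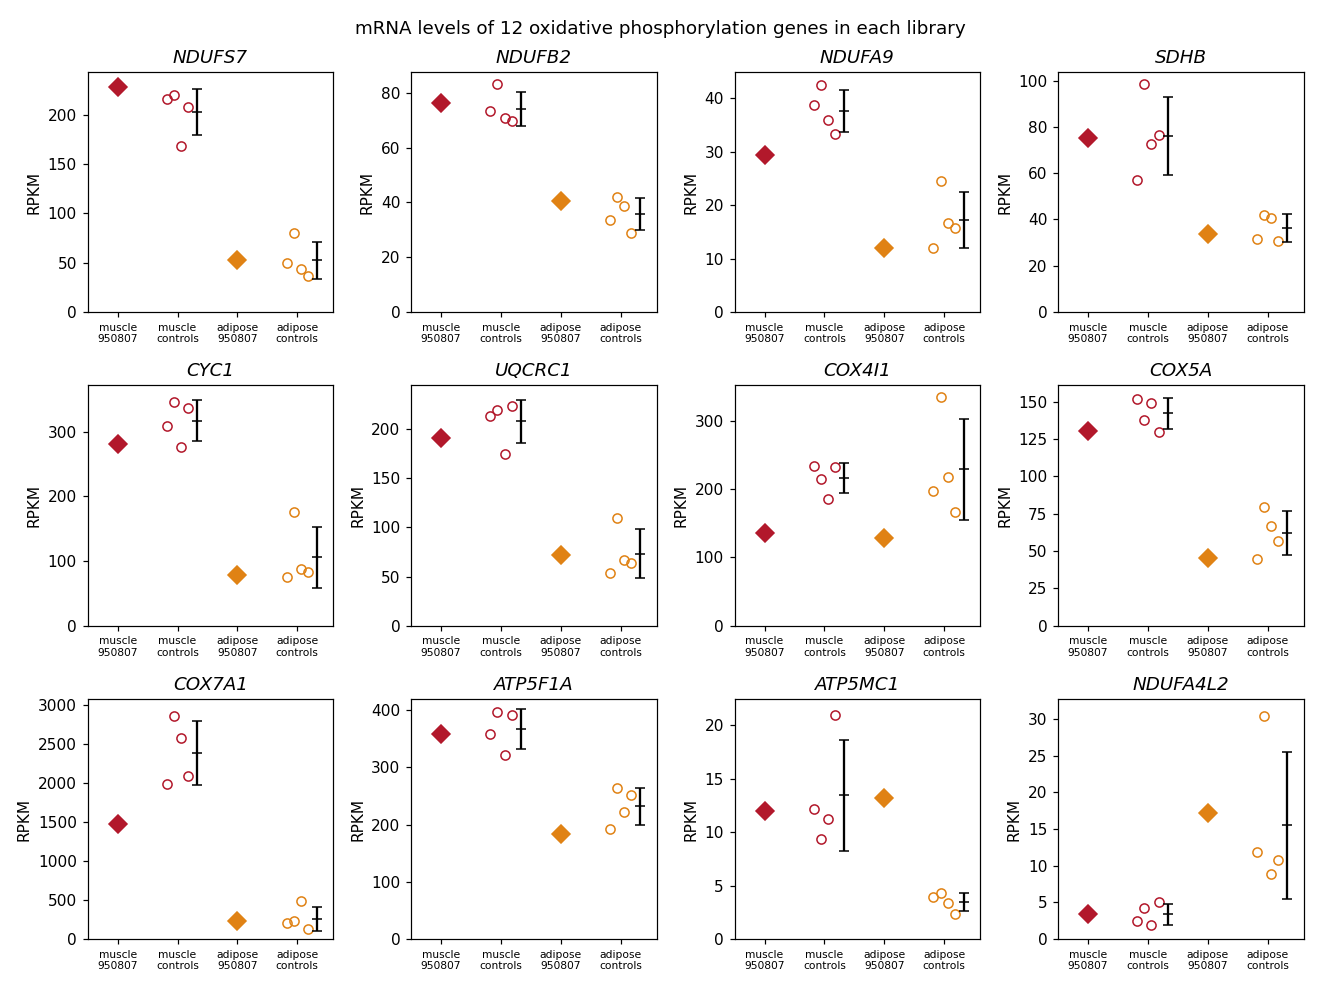
RPKM in each library for 12 subunit genes; filled diamonds are hyperinsulinemic monkey rhesus_950807, open circles the 4 controls, and the bars beside them the control mean and SD. COX7A1 lies between 1981 and 2853 RPKM in control muscle, above all adipose libraries, and NDUFA4L2 is higher in all adipose libraries than in any muscle library. ATP5MC1 in the adipose tissue of rhesus_950807 lies within the range of control muscle on this RPKM scale.

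In complex I the widest difference was that of NDUFS7. It carries the iron-sulfur cluster next to the ubiquinone site and had 216, 220, 169 and 208 RPKM in control muscle, against 49.98, 79.8, 44.1 and 36.4 RPKM in control adipose tissue. Its log2 difference was 3.33 ± 0.28 (SE; adjusted p = 1.86e-06, edgeR) with TMM and 1.95 with mapped totals. The accessory subunits NDUFA9 and NDUFB2 stood at 2.49 and 2.43, and all 3 of these genes also passed with mapped totals. NDUFV1, the subunit that binds NADH, stood at 2.02 with TMM and did not pass with mapped totals (0.65). The 3 complex I genes that did not pass under either scaling were NDUFA1, NDUFS4 and NDUFB8. NDUFA1 rested on 20 to 97 reads per library.

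In complex II, the catalytic pair differed more than the membrane anchors. SDHB, the iron-sulfur subunit, had 57.3, 98.3, 72.5 and 76.5 RPKM in control muscle, against 31.4, 42.1, 40.7 and 30.5 RPKM in control adipose tissue. Its log2 difference was 2.43 ± 0.23 (SE; adjusted p = 5.39e-06, edgeR), followed by SDHA, the flavoprotein, at 2.10 ± 0.23. The anchors SDHC and SDHD stood at 1.85 ± 0.21 and 1.05 ± 0.28. With mapped totals SDHB alone passed (1.07), and SDHD changed sign (−0.31). The difference between catalytic and anchor subunits itself was not tested.

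Complex III held both a pair of high genes and the 1 gene of this complex that lay below 0. CYC1, cytochrome c1, had 308, 346, 276 and 337 RPKM in control muscle, against 74.9, 176, 88.2 and 83.2 RPKM in control adipose tissue, with a log2 difference of 2.96 ± 0.32 (SE; adjusted p = 1.42e-05, edgeR). UQCRC1, a core protein of the complex, was 208 ± 22.3 RPKM in control muscle and 73.4 ± 24.6 RPKM in control adipose tissue (SD, n = 4 each), a log2 difference of 2.88 ± 0.29 (SE). Its partner UQCRC2 stood at 1.40. UQCRH, the hinge protein that contacts cytochrome c1, had 1.36, 1.09, 1.62 and 1.63 RPKM in control muscle, against 2.68, 5.66, 3.88 and 3.64 RPKM in control adipose tissue. Its difference was −0.10 ± 0.29 (SE; adjusted p = 0.772, edgeR) with TMM and −1.48 with mapped totals, where it passed. The length used for UQCRH is that of a transcript of 4956 bases, so its RPKM is low next to those of its partners, and the comparison between tissues does not depend on that length.

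In ATP synthase the subunits of the catalytic head, ATP5F1A and ATP5F1B, stood at 2.03 ± 0.27 and 1.61 ± 0.28 (SE) with TMM. ATP5F1A was 367 ± 35.1 RPKM in control muscle and 232 ± 32.2 RPKM in control adipose tissue (SD, n = 4 each). ATP5IF1, the inhibitor of ATP hydrolysis by the enzyme, was at 1.94 and was higher in muscle in each of the 4 controls by RPKM. ATP5F1C, the central stalk subunit gamma, fell short of the log2 difference of 1 with TMM. With mapped totals none of these 4 passed, and ATP5F1A stood at 0.66, ATP5F1B at 0.25, ATP5IF1 at 0.56 and ATP5F1C at −0.41.

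ATP5MC1, ATP5MC2 and ATP5MC3 encode the same mature subunit c of the ATP synthase rotor with different import sequences. ATP5MC2 was the most abundant at 498, 474, 508 and 415 RPKM in control muscle, against 223, 369, 282 and 221 RPKM in control adipose tissue, a log2 difference of 2.16 ± 0.28 (SE) with TMM that was 0.79 and did not pass with mapped totals. ATP5MC1 had 12.1, 9.37, 11.2 and 21.0 RPKM in control muscle, against 3.96, 4.26, 3.34 and 2.32 RPKM in control adipose tissue. Its log2 difference was 3.34 ± 0.37 (SE; adjusted p = 1.59e-05, edgeR), the highest of complex V under both scalings. ATP5MC3 had 3.89, 9.93, 6.81 and 9.98 RPKM in control muscle, against 12.9, 6.81, 14.0 and 14.4 RPKM in control adipose tissue, and its difference of 0.71 ± 0.33 (SE) did not pass and changed sign with mapped totals (−0.65). As shares of the family, ATP5MC2 took 95.7 ± 1.75% in muscle and 94.3 ± 1.94% in adipose tissue (exact permutation p = 0.429, n = 4 each, adjusted 0.429). ATP5MC1 took 2.77 ± 1.30% in muscle and 1.22 ± 0.298% in adipose tissue (exact permutation p = 0.0286, n = 4 each, adjusted 0.0571). ATP5MC3 took 1.58 ± 0.677% in muscle and 4.48 ± 1.88% in adipose tissue (exact permutation p = 0.0857, n = 4 each, adjusted 0.114). These genes are close copies in their coding parts and only uniquely mapped reads were kept, so reads that fit several of them would be lost.

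Per animal, 18 of the 44 genes had a higher RPKM in muscle than in adipose tissue in 4 of 4 controls, and 5 genes (ATP5F1C, NDUFA4L2, NDUFB8, SDHD and UQCRH) in 0 of 4. The share of all genes was not computed for these 2 counts, so they are not a result about the subunit genes. By RPKM, 15 genes lay higher in each control muscle library than in any control adipose library, against 8.47% of all genes, and 2 genes, NDUFA4L2 and UQCRH, lay lower in each muscle library, against 65.0% of all genes. The median TMM-scaled difference over the 44 genes was 1.93 in rhesus_920401, 1.70 in rhesus_940129, 1.40 in rhesus_940313 and 1.88 in rhesus_950509. The adipose libraries with more ACTA1 belonged to the animals with the highest and the lowest value, rhesus_920401 and rhesus_940313. Without the adipose libraries of rhesus_920401 and rhesus_940313, 34 subunit genes were called higher and 0 lower, with a median of 1.61. Of all 10539 genes in that fit, 2184 were higher and 2514 lower, with a median of −0.13.

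Related pathways were read in the same comparison. Of the 14 citric acid cycle genes, which supply NADH and succinate, 8 were called higher in muscle and 0 lower with TMM (median 1.52), but 3 higher and 3 lower with mapped totals (median 0.15). IDH2 and MDH2, both mitochondrial dehydrogenases, were at 2.92 and 2.78 with TMM. Of 34 assembly factors, which build the complexes but are not part of them, 16 were called higher and 0 lower with TMM (median 0.89), and 2 higher and 9 lower with mapped totals (median −0.48). Of 10 regulators of mitochondrial biogenesis, ESRRA, an orphan nuclear receptor that drives respiratory genes, was called higher (2.89), and GABPA and GABPB1, the subunits of nuclear respiratory factor 2, were called lower (−2.50 and −1.41) with TMM (median 0.05). With mapped totals 1 of the 10 was higher and 7 were lower (median −1.31). PPARGC1A, the coactivator PGC-1alpha, stood at 0.04 with TMM and did not pass.

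The second comparison set muscle of hyperinsulinemic monkey rhesus_950807 against that of the 4 controls. No subunit gene was called at an adjusted p under 0.05, nor was any of the 8306 genes tested with edgeR (0.0%). At an unadjusted p under 0.05 there were 2 of the 44 subunit genes and 754 of all genes (9.08%), and DESeq2 called 88 genes overall and 0 subunit genes. The median log2 difference of the subunit genes was −0.16, against −0.03 for all genes. With mapped totals it was 0.02, against 0.14 for all genes, so the subunit genes lay 0.13 and 0.12 below the median gene under these scalings. With TMM, 33 of the 44 values were below 0, and with mapped totals 19 were. Of all genes, 47.6% were above 0 with TMM and 62.2% with mapped totals.

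The 2 genes with an unadjusted p under 0.05 both belong to complex IV. COX7A1 had 1467 RPKM in the muscle of rhesus_950807, against 1981, 2853, 2571 and 2091 RPKM in control muscle. This was below each control, and the log2 difference was −0.86 ± 0.30 (SE; adjusted p = 0.496, edgeR). COX4I1 had 135 RPKM in rhesus_950807, against 233, 215, 185 and 231 RPKM in control muscle. It too lay below each control, and its difference was −0.86 ± 0.29 (SE; adjusted p = 0.496, edgeR). COX7A1 accordingly took 25.3% of the summed RPKM of the subunit genes in the muscle of rhesus_950807, against 32.0 to 40.0% in control muscle.

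For the other complexes, the genes with the smallest p did not pass either. ATP5F1B, the catalytic beta subunit, had 65.1 RPKM in rhesus_950807, against 94.6, 114, 66.8 and 96.3 RPKM in control muscle (log2 difference −0.69 ± 0.34, SE). ATP5IF1 had 243 RPKM in rhesus_950807, above the 123 to 215 RPKM of control muscle (0.38 ± 0.29). NDUFA9 was at −0.53 ± 0.26, NDUFV1 at −0.52 ± 0.32, CYC1 at −0.35 ± 0.28 and UQCRC1 at −0.30 ± 0.28. SDHA and SDHB stood at −0.25 ± 0.28 and −0.19 ± 0.31, and SDHB changed sign on the RPKM scale (0.01). With TMM, 11 of the 44 genes lay below each of the 4 controls, against 23.8% of all genes, and 2 genes, ATP5IF1 and NDUFA1, lay above each control, against 24.3% of all genes. The share below, 25.0%, was near that of all genes.

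Fiber type markers were read in the same comparison. The summed level of 7 fast fiber genes was 46820 RPKM in the muscle of rhesus_950807, within the 32300 to 50690 RPKM of control muscle. Of these genes 4 lay higher and 3 lower (median log2 difference 0.06, 0 called). The summed level of 9 slow fiber genes was 120 RPKM in the muscle of rhesus_950807, against 506 to 4675 RPKM in control muscle, and all 9 lay lower in rhesus_950807 with a median log2 difference of −3.77, none of them called. MYH7, the slow myosin heavy chain, had 12.9 RPKM in rhesus_950807, against 80.1, 531, 45.5 and 72.0 RPKM in the controls. The muscle of rhesus_940129 held the most slow fiber RNA, and it was also the highest of the 4 controls in 22 of the 44 subunit genes. Leaving out 1 control at a time, the median difference of the subunit genes was −0.06 without rhesus_940129 (24 genes below 0), −0.07 without rhesus_950509, −0.20 without rhesus_920401 and −0.23 without rhesus_940313. Other summed marker levels were also below each control in the muscle of rhesus_950807, at 64.0 RPKM for 9 smooth muscle and pericyte genes (99.7 to 145 RPKM in the controls), 12.4 RPKM for 8 macrophage genes (14.5 to 45.0 RPKM), 0.326 RPKM for 4 T and NK cell genes (0.426 to 3.06 RPKM) and 162 RPKM for 6 fibroblast genes (163 to 231 RPKM). The 4 T and NK cell genes were not among the genes tested in muscle. Sums above each control were found for 34 assembly factors, at 666 RPKM against 603 to 620 RPKM. The same held for 2 brown adipocyte genes, at 2.01 RPKM against 0.134 to 0.958 RPKM. Of these 2, UCP1 had 0 RPKM in each muscle library, so the sum came from 1 gene. Neither was among the genes tested in muscle. On the RPKM scale of these sums, 15.2% of all single genes tested in muscle lay below each control and 34.9% above. The part of fiber and cell composition in the values of rhesus_950807 was not tested.

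The third comparison set adipose tissue of rhesus_950807 against that of the controls. Again 0 of the 44 subunit genes and 0 of 11981 genes passed in edgeR (0.0%). At an unadjusted p under 0.05 there were 2 subunit genes and 286 genes in all (2.39%), and DESeq2 called 11 genes overall and 0 subunit genes. The median log2 difference of the subunit genes was −0.35, against −0.06 for all genes, and with mapped totals −0.14, against 0.13 for all genes. The subunit genes thus lay 0.28 and 0.27 below the median gene. With TMM 40 of the 44 values were below 0, and with mapped totals 30 were. Of all genes, 44.2% were above 0 with TMM and 62.3% with mapped totals.

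In the adipose tissue of rhesus_950807, 18 of the 44 subunit genes lay below each of the 4 controls with TMM (40.9%), against 14.3% of all genes. They came from complex I (8 genes), complex II (SDHD), complex III (CYC1, UQCRB, UQCRC2 and UQCRH), complex IV (COX4I1, COX5A and NDUFA4 by the grouping used here) and complex V (ATP5F1A and ATP5F1B). ATP5IF1 and ATP5MC1 lay above each control, against 15.7% of all genes. Without the adipose libraries of rhesus_920401 and rhesus_940313, 26 of 44 genes lay below both remaining controls, against 24.4% of all genes, and the median difference was −0.49. The module as a whole did not leave the range of the controls. The median over the 44 genes, as log2 level minus the control mean, was −0.29 in rhesus_950807, against −0.34 in rhesus_920401, 0.27 in rhesus_940129, 0.20 in rhesus_940313 and −0.24 in rhesus_950509. Control rhesus_920401 was the lowest of all 5 animals, and leaving out 1 control at a time gave median differences of rhesus_950807 from −0.46 (without rhesus_920401) to −0.23 (without rhesus_940129).

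**Figure D3:**
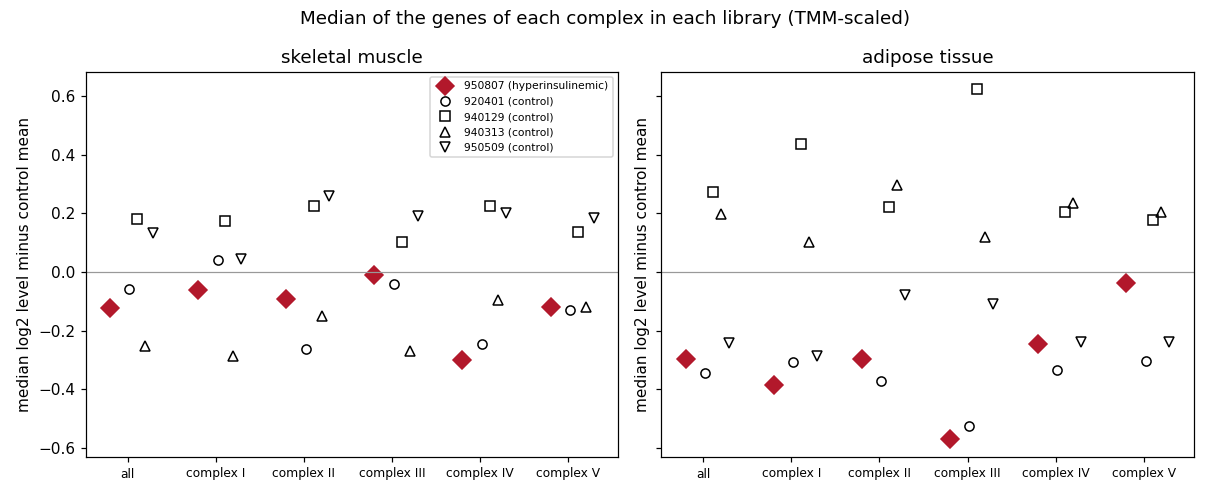
Median over the subunit genes of all complexes and of each complex in each library, as TMM-scaled log2 level minus the mean of the 4 controls of that tissue. In adipose tissue rhesus_950807 (filled diamonds) lies at −0.29 over all genes, inside the control range of −0.34 to 0.27, and below all 4 controls in complexes I and III.

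By complex, the median difference in adipose tissue was −0.46 for complex I, −0.32 for complex II, −0.64 for complex III, −0.44 for complex IV and −0.07 for complex V. UQCRH had 1.84 RPKM in rhesus_950807, against 2.68, 5.66, 3.88 and 3.64 RPKM in the controls, a log2 difference of −1.32 ± 0.58 (SE; adjusted p = 0.9999, edgeR). COX4I1 had 128 RPKM in rhesus_950807, against 196, 335, 217 and 166 RPKM in the controls (−1.04 ± 0.54). As in muscle, this was below each control. SDHD was at −0.80 ± 0.51, NDUFA6 at −0.77 ± 0.46, NDUFB4 at −0.67 ± 0.43, ATP5F1B at −0.67 ± 0.52, COX5A at −0.66 ± 0.50, UQCRC2 at −0.60 ± 0.46 and SDHA at −0.34 ± 0.45, and none passed.

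ATP5MC1 was the farthest above 0 of the 4 subunit genes that lay above it, the others being NDUFA1 (0.57), ATP5IF1 (0.22) and COX6C (0.16), and the 1 of them with an unadjusted p under 0.05. It had 13.2 RPKM (308 reads) in the adipose tissue of rhesus_950807, against 3.96, 4.26, 3.34 and 2.32 RPKM (51 to 73 reads) in control adipose tissue. This level was within the range of control muscle, and the log2 difference was 1.73 ± 0.61 (SE; unadjusted p = 0.0179 and adjusted p = 0.9999, edgeR). In the muscle of rhesus_950807 the gene had 12.01 RPKM, inside the control range. As a share of the subunit c family, ATP5MC1 took 3.88% in the adipose tissue of rhesus_950807, against 1.65, 1.12, 1.12 and 0.973% in the controls. This is above each control, and 1 animal against 4 cannot go below an exact permutation p of 0.2. Among the 44 genes it was the 1 gene for which the difference between muscle and adipose tissue of rhesus_950807 lay below all controls by RPKM (log2 −0.14, against 1.14 to 3.18 in the controls). By the same measure 9 genes lay above all controls and 34 within their range. The share of all genes was not computed for this measure, so these counts are not a result about the subunit genes. In the files ATP5MC1 lies on chromosome 16, positions 33126023 to 33129054, and its transcript is 559 bases long.

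**Figure D4:**
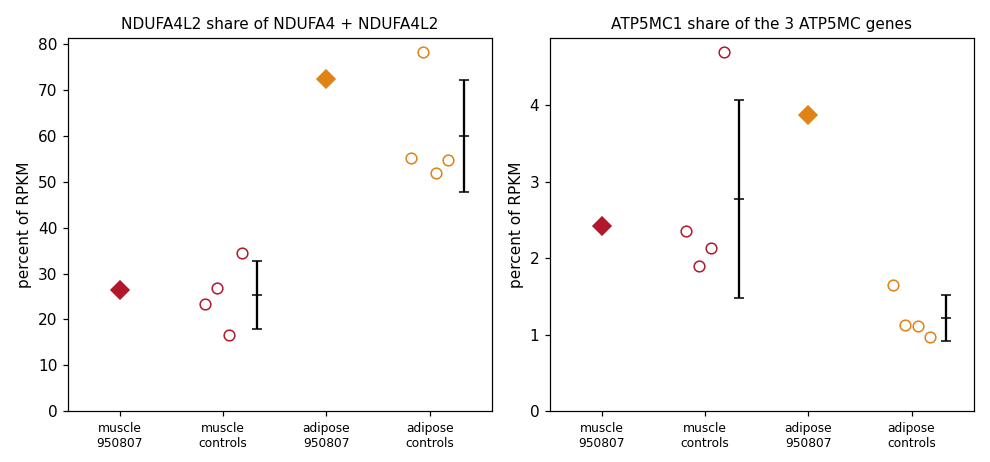
NDUFA4L2 as a percent of the RPKM of NDUFA4 and NDUFA4L2, and ATP5MC1 as a percent of the RPKM of the 3 ATP5MC genes, in each library; diamonds are rhesus_950807, circles the controls, and bars the control mean and SD. Control muscle and control adipose tissue do not overlap in either share, and the ATP5MC1 share of rhesus_950807 in adipose tissue, 3.88%, lies above the 4 adipose controls.

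Other lists were read in the same adipose comparison. All 14 citric acid cycle genes lay lower in rhesus_950807 (median −0.69, 0 called), among them CS, citrate synthase, with 94.8 RPKM in rhesus_950807, against 107, 251, 176 and 160 RPKM in the controls. Of 34 assembly factors 30 lay lower (median −0.34, 0 called). PPARGC1A was at −2.20 and did not pass. Its level was 0.513 RPKM in rhesus_950807, against 1.30, 0.554, 4.3 and 1.90 RPKM in the controls. The 11 regulators of mitochondrial biogenesis tested had a median of −0.58 (9 lower, 2 higher, 0 called). The summed level of 8 macrophage genes was 725 RPKM in rhesus_950807, against 182 to 554 RPKM in the controls, and all 8 lay higher (median 0.78, 0 called). Summed levels above each control were also found for 6 fibroblast genes, at 2763 RPKM in rhesus_950807 against 1405 to 2326 RPKM (4 of 6 higher), and for 4 T and NK cell genes, at 25.5 RPKM against 5.76 to 15.5 RPKM (4 of 4 higher). The same held for 6 endothelial genes, at 232 RPKM in rhesus_950807 against 130 to 200 RPKM (3 of 6 higher). The sum of 9 slow fiber genes was also above each control, at 111 RPKM against 69.0 to 85.95 RPKM. Of the 5 slow fiber genes tested in adipose tissue, though, 2 lay higher and 3 lower (median −0.13). None of these genes was called. On the RPKM scale of these sums, 27.9% of all single genes tested lay above each control in adipose tissue and 7.8% below. The summed level of 9 adipocyte genes was 6371 RPKM in rhesus_950807, within the 3880 to 7837 RPKM of the controls. The part of cell composition in the subunit values was not tested.

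**Figure D5:**
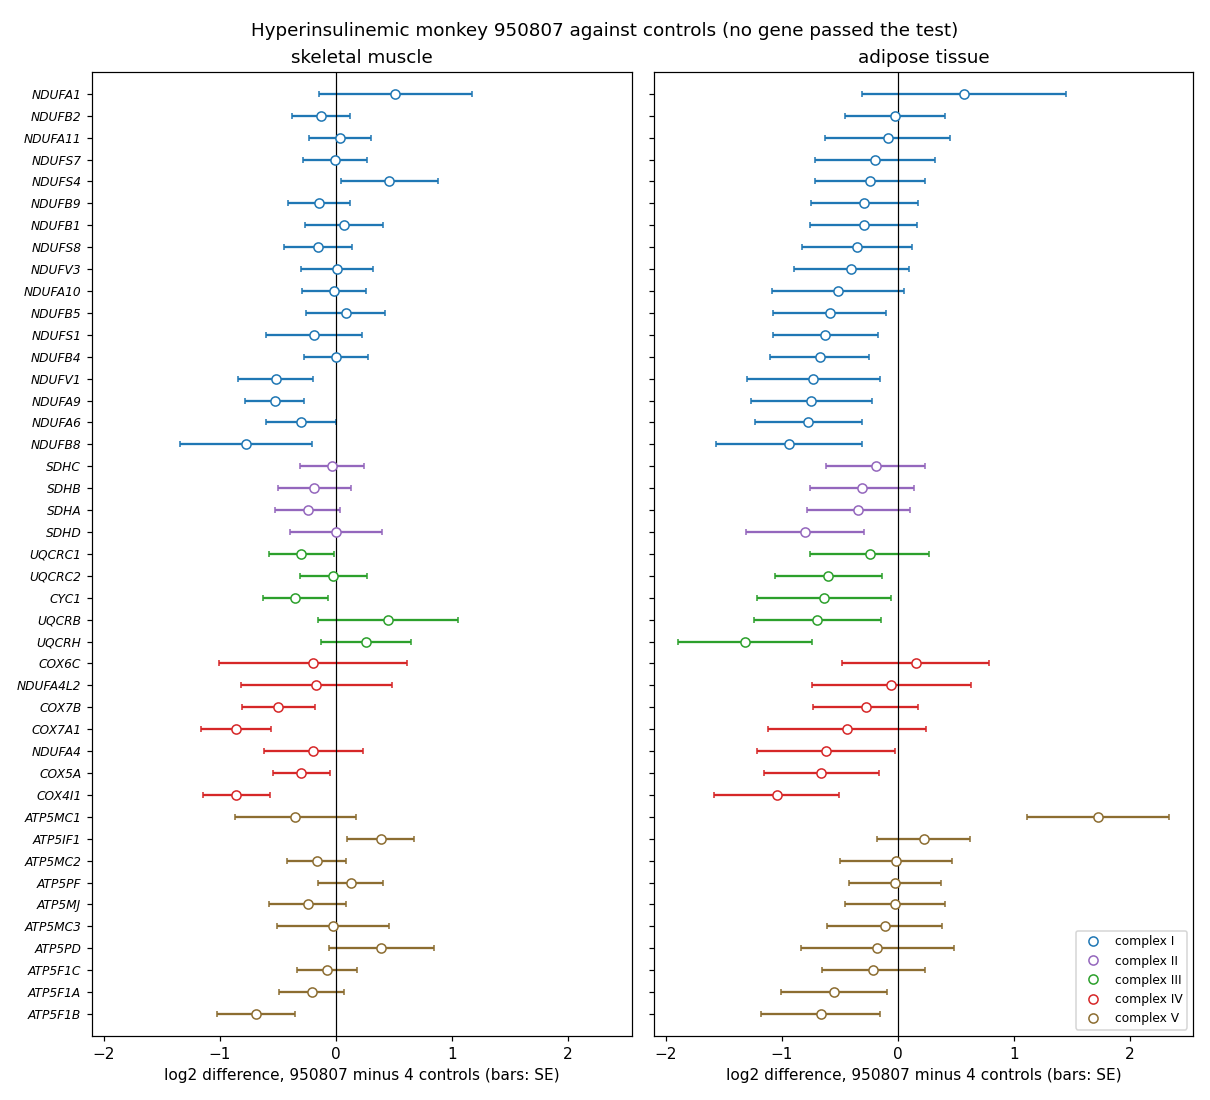
The log2 difference of 43 subunit genes, rhesus_950807 minus the 4 controls, with its SE, in skeletal muscle (left) and adipose tissue (right), by complex. No gene passed the test in either tissue; in adipose tissue most values lie below 0 and ATP5MC1 lies farthest above it at 1.73.

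The last comparison tested whether the difference of rhesus_950807 from the controls was the same in both tissues. Taken as the adipose difference less the muscle difference, this passed for 0 of the 44 subunit genes and for 0 of 11270 genes in edgeR (0.0%), with 2 subunit genes and 633 genes in all at an unadjusted p under 0.05 (5.62%). DESeq2 called 11 genes overall and 0 subunit genes. The median was −0.15 for the subunit genes and 0.02 for all genes. ATP5MC1 had the smallest p (2.10 ± 0.78, SE; adjusted p = 0.821, edgeR), followed by UQCRH (−1.54 ± 0.67; adjusted p = 0.853, edgeR). UQCRB was at −1.15 ± 0.93, SDHD at −0.79 ± 0.63, NDUFB5 at −0.66 ± 0.59, NDUFB4 at −0.65 ± 0.44, ATP5PD at −0.54 ± 0.81, NDUFA4 at −0.40 ± 0.61, COX5A at −0.32 ± 0.51 and SDHC at −0.14 ± 0.45. COX4I1 was at −0.15, with a 95% interval of −1.38 to 1.08. With TMM it lay below each control in both tissues, as did ATP5F1B, COX5A, CYC1, NDUFA9 and NDUFB8. The share of all genes that did so was not computed.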

How the data were processed

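The authors deposited, for each library, whole-read counts per Ensembl gene and RPKM per kilobase of the longest transcript and scaled to mapped reads; RPKM recomputed from the counts matched for every row. Reads were mapped with TopHat (1.2.0 in the submitters' processing notes, while the methods name another release), and uniquely mapped reads were kept. Which program counted reads, and on which build and annotation release, is not given in the sources used here. Starts are printed as in the files, counted from 1. Symbols were matched for 15556 of 28595 genes (54.4%); a RefSeq table added 0. Members and lists were chosen with earlier results of these data known.

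Counts were tested with edgeR 4.0.16 (quasi-likelihood, TMM, on genes whose mean over the fitted libraries reached 1 RPKM) in R 4.3.3, with Benjamini-Hochberg adjustment over all genes tested; limma 3.58.1 on log2(RPKM + 1) and DESeq2 1.42.0 were alternatives. Scripts were tested on simulated counts. Control replicates were separate animals. Named were the isoform families, the SDH genes, CYC1, and per complex and comparison the 2 genes with the largest called difference or, with none called, the smallest p; for rhesus_950807 a log2 difference is printed only for those of smallest p and for genes singled out after their values were seen. The values of 1 member are not reported here, though it is part of the counts and medians over all members. The tissues pair by animal, since both came from the same monkey; the correlation of the deviations of an animal's libraries was 0.099 in rhesus_920401, −0.136 in rhesus_940129, 0.0902 in rhesus_940313 and 0.158 in rhesus_950509.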

Additional observations from a re-analysis of the deposited data

Results flagged for a closer look

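Among 80 groups of 4 control values checked for a sample standing far from the others (Dixon's test), 5 were picked out, and chance alone picks about 1 group in 20. The adipose tissue of control rhesus_940129 accounted for 4 of them. There CYC1 reached 175.6 RPKM, NDUFA6 62.78 RPKM and NDUFA4L2 30.46 RPKM, each above the other 3 controls, and NDUFA4L2 took 78.37% of the RPKM of NDUFA4 and NDUFA4L2 together. In that tissue rhesus_940129 was the highest control for 24 of the 44 subunit genes. In the muscle of control rhesus_950509, ATP5MC1 took 4.697% of the RPKM of the subunit c family, against 1.90 to 2.36% in the other controls.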

How the results depend on the processing

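Scaling decided how many genes were called between tissues. In place of 35 higher and 0 lower, 10 were higher and 2 lower with mapped totals and with limma on log2(RPKM + 1) or log2(RPKM + 0.1), 9 higher and 2 lower with gene read totals, and 31 higher and 1 lower (NDUFA4L2) where the mean had to reach 5 RPKM. Of all 11173 genes, 2459 were higher and 3308 lower in the main fit. These became 799 and 7040 with mapped totals, 742 and 6290 with limma on log2(RPKM + 1), and 773 and 7162 with gene read totals. At a mean of 5 RPKM they were 1505 and 1820 of 6131 genes. The median difference of the subunit genes, 1.63, became 0.26 with mapped totals, 0.25 with either limma fit, 0.21 with gene read totals and 1.37 at a mean of 5 RPKM. Under all 16 settings 9 subunit genes were called higher, among them ATP5MC1, COX5A, COX7A1, CYC1, NDUFA9, NDUFS7, SDHB and UQCRC1. The share of all genes called under all settings was not computed. Signs between tissues turned for 12 genes with mapped totals, among them ATP5MC3 (−0.61 and −0.68 in limma, −0.70 with gene read totals, −0.65 with mapped totals), COX4I1 (−0.0345 in both limma fits, −0.12 and −0.080) and SDHD (−0.30 and −0.32 in limma, −0.37 and −0.31). UQCRC2 turned with gene read totals (−0.018). UQCRH ranged from −0.28 to 0.31 when 1 control was left out.

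For rhesus_950807, the median in muscle was 0.047 and 0.050 in the limma fits, and SDHB in muscle turned to 0.012 and 0.013 there. COX4I1 in the comparison of the 2 effects turned to 0.19 without rhesus_940129, and SDHC in the comparison of the 2 effects ranged from −0.23 to 0.032 when 1 control was left out. No setting called a subunit gene in any comparison of rhesus_950807. With the animal as replicate block 35 subunit genes were higher in muscle, with a median of 1.64, against 2454 of all 11173 genes. The block changed no other count of subunit genes called. For the shares it allows no p below 0.125. Summing rows by symbol changed nothing, since each symbol had 1 row. With 1 hyperinsulinemic animal, a difference has no replicate check in that group.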

Other observations

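A grouping made after the values were seen set 9 subunits, called catalytic here (NDUFV1, NDUFS1, NDUFS7, NDUFS8, SDHA, SDHB, CYC1, ATP5F1A and ATP5F1B), beside 34 others. The 9 were picked from subunits that bind a redox cofactor or substrate in the electron path, or form the catalytic head of ATP synthase. The complex II anchors SDHC and SDHD, which can be held to meet that description, were counted with the others. Between tissues these anchors stood at 1.85 and 1.05 with TMM. Between tissues in controls, the 9 catalytic genes had a median log2 difference of 2.03 with TMM (1.61 to 3.33, 9 called higher), against 1.43 for the others (−0.81 to 4.53, 25 called higher). With mapped totals the medians were 0.66 and 0.07, and 3 and 6 genes were called higher. In adipose tissue of rhesus_950807 against controls the medians were −0.55 for the catalytic genes and −0.28 for the others, with 0 called in either group. These are descriptions with no test.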
